A study of Macaca mulatta with 18 samples.

Results

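Microglia marker genes were followed across RNA-seq libraries of fetal rhesus macaque brain. The 10 genes were TYROBP, C1QA, C1QB, C1QC, CSF1R, CX3CR1, AIF1, P2RY12, TREM2 and SPI1. They were taken by name as known markers of microglia, by a rule that holds no measured value, but with earlier results of these data known. Of these, 5 were measured and tested among 22345 genes in the table (13460 tested): CSF1R (ENSMMUG00000011556), C1QC (ENSMMUG00000020756), TREM2 (ENSMMUG00000013920), SPI1 (ENSMMUG00000015606) and TYROBP (ENSMMUG00000008004). For C1QA, C1QB, CX3CR1, AIF1 and P2RY12 no row could be matched through the gene identifiers, and these 5 genes are not analysed here. The label thus rests on 5 of its 10 markers, all of which had mean values well above 0 on the log2 scale. Such levels do not show which cells the RNA came from. Whether it came from microglia or from other macrophages was not tested.

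The series holds 18 samples of wild type Macaca mulatta brain at embryonic day 84, and 6 of them are RNA-seq libraries. Each of the 2 tissues, called CP and GZ in the labels, had 3 RNA libraries with the numbers 1 to 3, and no treatment or other allele is named. The labels do not spell out CP and GZ, which in work on the fetal cortex stand for the cortical plate, where young neurons settle, and the germinal zone, where progenitors divide. Nor do they tie the RNA libraries to animals, although same-numbered libraries of CP and GZ share a code in their titles. Since no animal is named, the p-values rest on a spread between libraries that may be partly technical. Values are log2 FPKM, a level per gene length and per library size, that the authors had normalized with cqn. A difference of 1 on this scale is a doubling. Read depth is unknown, since the values carry no read totals.

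Microglia are the resident macrophages of the brain. They arise from yolk sac progenitors, enter the brain early in development and settle among dividing progenitors as well as among neurons. CSF1R is the receptor whose signal keeps them alive, SPI1 (PU.1) is the transcription factor that sets their lineage, and TREM2 is a surface receptor that signals through the adaptor TYROBP. C1QC codes for a chain of C1q, the complement protein that starts the classical pathway and tags synapses for removal.

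The tissue labels were checked on genes of other cells. The lists were chosen with earlier results of these data known, so the check is not an independent one. GZ had the higher level of 9 of 10 cell cycle genes, and CP of 9 of 10 genes of neuronal maturation (limma, adjusted p under 0.05). Beside them, 24.5% of all genes tested were called higher in GZ and 20.9% higher in CP. Library medians lay between 1.82 and 1.88 on the log2 scale. Both libraries numbered 1 stood apart in their Y-linked genes. The median log2 value of 9 Y-linked genes was 3.73 in CP and 3.75 in GZ of number 2, -1.73 in both tissues of number 3, but 1.55 in CP and -0.13 in GZ of number 1. The libraries numbered 1 thus lay between the other levels and differed from each other. Whether they hold RNA of more than 1 animal, or come from different animals, was not tested, and it bears on every mean and difference over 6 libraries. The tissue differences of the marker genes are therefore given with and without both libraries numbered 1. Their order, spread, correlations, sums and likeness to other genes are given over 6 libraries only, and the libraries numbered 1 bear on them too.

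None of the 5 measured microglia marker genes differed between GZ and CP by limma at an adjusted p under 0.05. None had an unadjusted p under 0.05 either, beside 7126 of the 13460 genes tested. Among all genes tested, 45.4% were called in one direction or the other, 24.5% as higher in GZ and 20.9% as higher in CP. The median difference of the 5 genes, GZ minus CP, was -0.14 on the log2 scale, beside 0.05 over all genes tested. The GZ and CP values overlapped for all 5 genes, while 56.4% of all genes tested had no overlap between tissues. In bulk tissue, fewer microglia and less RNA per microglial cell cannot be told apart, here and in all results that follow.

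CSF1R, the survival receptor, had the highest level of the 5 genes. Its log2 FPKM was 5.44, 4.92 and 4.93 in CP replicates 1 to 3 and 4.54, 5.11 and 5.21 in GZ replicates 1 to 3. CP replicate 1 was the highest of the 6 libraries and GZ replicate 1 the lowest, and the other 4 lay between. The means were 5.09 ± 0.30 in CP and 4.95 ± 0.36 in GZ (SD, n = 3), and the limma difference was -0.14 ± 0.20 (SE, adjusted p = 0.606). The 95% interval of that difference ran from -0.61 to 0.33.

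TREM2, the lipid-sensing receptor, varied more. Its log2 FPKM was 4.26, 3.62 and 3.34 in CP replicates 1 to 3 and 3.06, 4.40 and 4.37 in GZ replicates 1 to 3. GZ replicates 2 and 3 were the highest libraries and GZ replicate 1 the lowest, so that the GZ values enclosed those of CP. The limma difference was 0.20 ± 0.38 (SE, adjusted p = 0.697, 95% interval -0.68 to 1.08), so a doubling in GZ lies within the interval.

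TYROBP, the adaptor through which TREM2 signals, had the lowest level of the 5 genes and followed a similar course. Its log2 FPKM was 3.08, 2.46 and 1.91 in CP replicates 1 to 3 and 2.21, 3.25 and 3.32 in GZ replicates 1 to 3. GZ replicates 2 and 3 again lay above all CP libraries, and GZ replicate 1 lay below CP replicates 1 and 2. The means were 2.48 ± 0.58 in CP and 2.93 ± 0.62 in GZ (SD, n = 3), and the limma difference was 0.44 ± 0.37 (SE, adjusted p = 0.365, 95% interval -0.41 to 1.30).

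C1QC, the complement gene, was 4.58, 4.01 and 4.12 in CP replicates 1 to 3 and 3.55, 4.18 and 4.08 in GZ replicates 1 to 3 (log2 FPKM). Replicates 2 and 3 of both tissues lay close together, and the libraries numbered 1 had the highest and the lowest value. The limma difference was -0.30 ± 0.20 (SE, adjusted p = 0.271, 95% interval -0.77 to 0.18).

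SPI1, the lineage transcription factor, was 3.53, 3.37 and 2.80 in CP replicates 1 to 3 and 2.70, 3.28 and 3.23 in GZ replicates 1 to 3 (log2 FPKM). CP replicate 3 and GZ replicate 1 were the low libraries. The limma difference was -0.16 ± 0.23 (SE, adjusted p = 0.606, 95% interval -0.70 to 0.37).

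**Figure D1:**
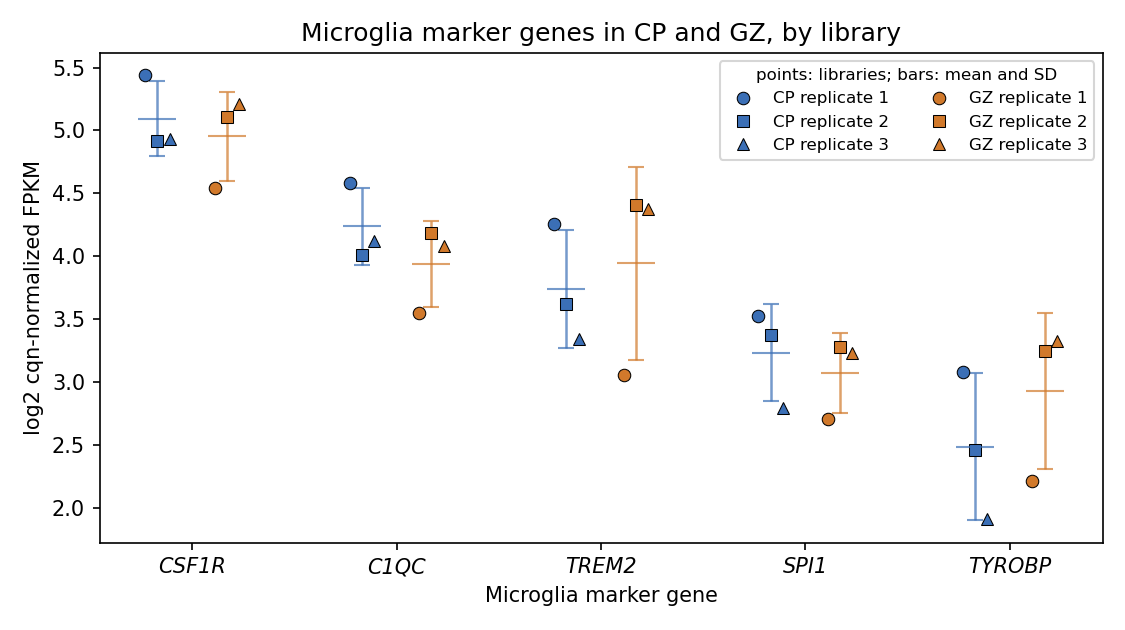
Log2 cqn-normalized FPKM of the 5 measured microglia marker genes (vertical axis) in the 3 CP (blue) and 3 GZ (orange) libraries, with the mean and SD of each tissue as bars. For every gene, replicate 1 (circles) is the highest CP library and the lowest GZ library.

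The order of the levels over the 6 libraries, on the same log2 FPKM scale, was CSF1R (5.02 ± 0.30, SD), C1QC (4.09 ± 0.33), TREM2 (3.84 ± 0.58), SPI1 (3.15 ± 0.33) and TYROBP (2.71 ± 0.59). CSF1R was above C1QC and TREM2 above SPI1 in 6 of 6 libraries. C1QC and TREM2 did not differ beyond their spread: the mean difference was 0.25 with an SD of 0.42, and C1QC was the higher in 4 of 6 libraries. SPI1 was above TYROBP in 5 of 6 libraries, by 0.45 on average with an SD of 0.42. In linear terms CSF1R ran from 23.3 to 43.4 FPKM and C1QC from 11.7 to 24.0 FPKM. Mean levels stood at the 74.6th percentile of all genes tested for CSF1R and at the 27.9th for TYROBP.

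All 5 genes varied more between libraries of the same tissue than most genes did. Their SD within tissues was 0.32 for C1QC, 0.33 for CSF1R, 0.35 for SPI1, 0.60 for TYROBP and 0.64 for TREM2 on the log2 scale, beside a median of 0.17 over all genes tested. These values stood at the 83.3rd percentile of all genes tested for C1QC and at the 98.05th for TREM2. TREM2 had a 2.55-fold range over the 6 libraries and TYROBP a 2.66-fold range, whereas SPI1 had a 1.77-fold range.

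The libraries numbered 1 carried much of that spread, and in opposite directions. In all 5 genes CP replicate 1 was the highest of the CP libraries and GZ replicate 1 the lowest of the GZ libraries, an arrangement noticed after the values were seen and held by 12.4% of all genes tested. Centred on each gene's own mean and averaged over the 5 genes, CP replicate 1 stood at 0.42 and GZ replicate 1 at -0.55 on the log2 scale. CP replicates 2 and 3 stood at -0.09 and -0.34, and GZ replicates 2 and 3 both at 0.28.

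Without both libraries numbered 1, 2 of the 5 genes were higher in GZ by limma, TYROBP and TREM2, where 12.2% of all genes tested were called higher in GZ. With the remaining 2 libraries per tissue, TYROBP was 2.14-fold higher in GZ (1.10 ± 0.24 SE on the log2 scale, adjusted p = 0.025). TREM2 was 1.87-fold higher in GZ (0.91 ± 0.17, adjusted p = 0.015). CSF1R (0.23 ± 0.12, adjusted p = 0.201), SPI1 (0.17, adjusted p = 0.617) and C1QC (0.07 ± 0.15, adjusted p = 0.761) did not pass, and their differences changed sign from the values with 6 libraries. The median over the 5 genes was 0.23 instead of -0.14. Leaving out both libraries raised the difference of all 5 genes by construction. CP replicate 1 was their highest CP library and GZ replicate 1 their lowest GZ library. The 12.2% of all genes is thus no like comparison, since 12.4% of all genes had that arrangement. The same rise by construction holds for CD68, ITGB2, VSIG4, HAVCR2, SALL1, CEBPA, TREM1, APOE, SPP1 and ITGAX in the lists below. It also holds for LYN and IL34, whose differences were negative.

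**Figure D2:**
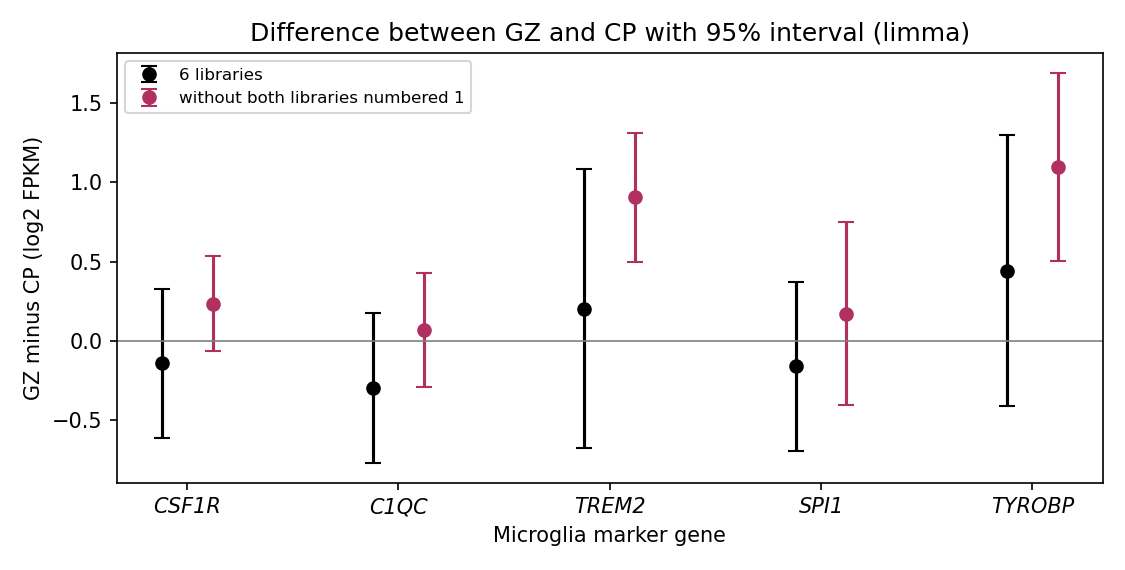
Difference between GZ and CP in log2 FPKM (vertical axis) for the 5 measured marker genes, with 95% intervals from limma, for all 6 libraries (black) and without both libraries numbered 1 (red). All 5 intervals include 0 with 6 libraries, and those of TREM2 and TYROBP lie above 0 without number 1.

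The 5 genes varied together over the 6 libraries to different degrees. Pearson's r, given as a description over 3 CP and 3 GZ libraries, was highest between TYROBP and TREM2, the adaptor and its receptor (0.95), and between C1QC and CSF1R (0.94). It was lowest between TYROBP and C1QC (0.50). TYROBP and TREM2 lay above every CP library in GZ replicates 2 and 3, while C1QC and CSF1R peaked in CP replicate 1.

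Other genes of myeloid cells, from lists chosen with earlier results of these data known, were set beside the marker genes. Beside 45.4% of all genes tested, 1 of 20 tested pan-myeloid genes was called, none as higher in GZ and 1 as higher in CP, CORO1A, an actin-binding protein gene of leukocytes that is also known from other cells (-0.55 ± 0.11 SE, adjusted p = 0.0046). The median difference was 0.08. FCER1G, an adaptor related in function to TYROBP, had a log2 difference of 0.73 (adjusted p = 0.136, or 0.0495 without CP replicate 2 and 0.046 without GZ replicate 1) and the receptor gene HAVCR2 one of 0.71 (adjusted p = 0.118). The high CP replicate 1 and low GZ replicate 1 of the marker genes was also seen in 17 of these 20 genes. With number 1 left out in both tissues, CORO1A was not called (adjusted p = 0.058). In that fit 4 of the 20 were higher in GZ by limma, beside 12.2% of all genes, again no like comparison. These were the lysosomal marker CD68 (0.94, adjusted p = 0.020), the integrin gene ITGB2 (0.77, adjusted p = 0.036), the complement receptor gene VSIG4 (1.07, adjusted p = 0.017) and HAVCR2 (1.19, adjusted p = 0.043). They were named for that call, after their values were seen.

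Of 7 tested genes of surveying microglia 3 were called, a share near the 45.4% of all genes, with GZ the higher tissue for 2 and CP for 1. SALL1, a transcription factor gene of microglia and also of neural progenitors, was 4.32 in CP and 5.20 in GZ (log2 mean, difference 0.88 ± 0.13 SE, adjusted p = 0.0014). TGFBR1, a receptor of transforming growth factor beta, was 0.60 higher in GZ (adjusted p = 0.0083), and SLCO2B1, a transporter gene also known from vessels, was lower in GZ by a log2 difference of -0.81 (adjusted p = 0.017, but 0.054 without CP replicate 3 and 0.059 without GZ replicate 1). SLC2A5, the fructose transporter gene, had a difference of 0.21 (adjusted p = 0.543). SALL1 was the called gene of the list when both libraries numbered 1 were left out (adjusted p = 0.0075), where its difference rose by construction to 1.05.

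Around TREM2 and TYROBP, 2 of 11 tested signalling genes were higher in CP, a share near the 20.9% of all genes tested. None was higher in GZ, beside 24.5% of all genes. These were the Src family kinase genes LYN (-0.75 ± 0.14 SE, adjusted p = 0.0040) and FGR (-0.76, adjusted p = 0.041). FGR was not called when replicate 2 or 3 of CP, or replicate 1 or 2 of GZ, was left out (adjusted p from 0.110 to 0.116). VAV1, an exchange factor of blood cells, had a difference of 0.54 (adjusted p = 0.080, or 0.036 with no variance trend) and TREM1, a receptor that also uses TYROBP, one of 0.42 ± 0.65 (adjusted p = 0.630). Leaving out both libraries numbered 1 gave TREM1 a difference of 1.62 (adjusted p = 0.022) and LYN one of -0.58 (adjusted p = 0.044), the called genes of the list in that fit.

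Of 11 tested myeloid transcription factors beside SPI1, 4 were called, 2 in each direction, beside 45.4% of all genes. The same 4 were called without both libraries numbered 1. CEBPA, a myeloid factor gene, was 0.74 higher in GZ (adjusted p = 0.025), a call lost when replicate 2 or 3 of either tissue was left out (adjusted p from 0.053 to 0.082), and MYB, a factor of immature blood cells and of dividing cells, 1.10 higher. MEF2C was 8.44 in CP and 5.45 in GZ (log2 mean, difference -3.00 ± 0.12) and FLI1 was 1.03 lower in GZ (-1.03 ± 0.14). MEF2C is also a factor of cortical neurons and FLI1 of endothelium, and neuronal maturation and vessel genes were higher in CP too. Their part in these differences was not tested.

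Ligands for the receptors of microglia were measured in the same libraries. Of 9 tested, 2 were higher in CP, a share near the 20.9% of all genes tested, and none in GZ, beside 24.5%. The 2 were GAS6, a ligand of the phagocytic receptor MERTK (-0.44 ± 0.10, adjusted p = 0.0095), and IL34, the neuronal ligand of CSF1R (-0.34 ± 0.09, adjusted p = 0.015). CSF1, the other ligand of CSF1R, was 3.09, 2.45 and 1.42 in CP replicates 1 to 3 and 2.69, 3.51 and 2.88 in GZ replicates 1 to 3 (log2 FPKM). Its tissues overlapped, with a difference of 0.70 ± 0.41 (adjusted p = 0.193). TGFB1 had a difference of -0.29 (adjusted p = 0.064, or 0.021 without GZ replicate 3). IL34 was not called when replicate 1 or 3 of CP, or replicate 1 of GZ, was left out (adjusted p from 0.0509 to 0.059). Neither GAS6 (adjusted p = 0.0501) nor IL34 (adjusted p = 0.166) was called when both libraries numbered 1 were left out, and APOE was (0.64, adjusted p = 0.017).

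Of 8 tested complement genes other than C1q 5 were called, beside 45.4% of all genes, with GZ the higher tissue for 2 and CP for 3. CD46 and CD55, membrane proteins that shield cells from complement, were 0.55 (adjusted p = 0.0025) and 0.53 (adjusted p = 0.017) higher in GZ, and CD55 did not pass when replicate 3 of CP (adjusted p = 0.055) or replicate 2 of GZ (0.052) was left out. CSMD1 and CSMD2, which code for membrane proteins with complement control domains, were lower in GZ by log2 differences of -2.48 and -1.20. Neuronal maturation genes were higher in CP too, and the part of neurons in these 2 differences was not tested. Leaving out both libraries numbered 1 left CD46, CSMD1 and CSMD2 called. C3, the central component, was 5.18 in CP and 5.17 in GZ (log2 mean, adjusted p = 0.979).

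Of 13 tested genes raised in activated microglia 5 were called, a share near the 45.4% of all genes, with CP the higher tissue for 4 and GZ for 1. LPL, lipoprotein lipase, was 6.50 in CP and 3.31 in GZ (log2 mean, difference -3.19 ± 0.09). CD9, a tetraspanin gene, and CTSL, a lysosomal protease gene, were lower in GZ by log2 differences of -0.55 and -0.49, and CST7, which codes for a protease inhibitor, was 1.10 higher in GZ. CTSL did not pass when replicate 1 or 2 of either tissue was left out (adjusted p from 0.061 to 0.071). LPL, CD9 and CTSL are also made by other brain cells. When both libraries numbered 1 were left out, neither CST7 (adjusted p = 0.093) nor CD9 (0.063) nor CTSL (0.156) was called. In that fit 5 other genes were higher in GZ, beside 12.2% of all genes, again no like comparison. LPL was higher in CP, beside 1721 of 13477 genes tested. The 5 included SPP1 (1.05, adjusted p = 0.022) and ITGAX (1.75, adjusted p = 0.017), named after their values were seen.

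Antigen presentation genes were the myeloid-related list with calls in GZ alone in the 6-library fit. Of 5 tested, 3 were higher in GZ, beside 24.5% of all genes tested. These were CIITA, the master regulator of class II genes (1.01 ± 0.30 SE, adjusted p = 0.024), MAMU-DRA (1.25, adjusted p = 0.043) and MAMU-DRB1 (1.19, adjusted p = 0.041). All 3 had low levels, at the 4.4th, 1.9th and 3.2nd percentile of all genes tested. The CP means of MAMU-DRA (-0.38) and MAMU-DRB1 (-0.21) were under 0. Both reached the filter, a mean of 0 over 6 libraries, through their GZ values (means 0.87 and 0.97). The 24.5% of all genes is thus no like comparison for them. CD74, the class II chaperone gene, was 2.97, 3.08 and 2.15 in CP replicates 1 to 3 and 3.31, 4.32 and 3.35 in GZ replicates 1 to 3 (log2 FPKM). Its tissues did not overlap, as in 56.4% of all genes tested, but it did not pass (adjusted p = 0.052, or 0.046 without GZ replicate 3). The calls of all 3 genes were lost without single libraries. CIITA lost it when replicate 2 of CP, or replicate 1 or 3 of GZ, was left out (adjusted p from 0.061 to 0.088), MAMU-DRA when any 1 library other than CP replicate 2 was left out (0.055 to 0.136), and MAMU-DRB1 when any CP library or replicate 2 of GZ was (0.059 to 0.115). Quantile normalization left CIITA alone called of the 5 (MAMU-DRA adjusted p = 0.057, MAMU-DRB1 0.0507). MAMU-DRA also missed the threshold with no variance trend (0.0503) and MAMU-DRB1 on the log2(FPKM + 1) scale (0.055). A filter at a mean of 1 left 2 of the 5 genes to test, with none called. None of the 5 followed the arrangement of the libraries numbered 1 seen in the marker genes. With those libraries left out none was called, with differences of 0.97 for CIITA (adjusted p = 0.102) and 1.21 for CD74 (adjusted p = 0.081). The class II genes belong to a family of near-identical copies, and the sources used here do not say how reads were shared between copies.

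Markers of other cells that share genes with microglia were read beside these results. Border macrophages, which sit along vessels and in the meninges, had 1 called gene of 7 tested, beside 45.4% of all genes. It was COLEC12, a scavenger receptor gene also of vessel and connective tissue cells (-1.67 ± 0.28, adjusted p = 0.0027). STAB1 (-0.50, adjusted p = 0.059, or 0.027 without CP replicate 2), LYVE1 (-0.22), CD163 (-0.19) and FOLR2 (0.05) did not pass. The summed FPKM of 10 measured border macrophage genes was 49.9 to 65.5 in CP and 36.1 to 53.4 in GZ. The summed FPKM of the 5 microglia marker genes was 68.7 to 106 in CP and 54.5 to 94.0 in GZ. No measured marker was listed at 0 FPKM, since the values are on a log scale, but all 10 measured lymphocyte markers had means under 0 on that scale. Their summed FPKM was 2.14 to 3.31 in CP and 2.36 to 3.18 in GZ. Of 7 measured markers of monocytes and granulocytes 6 had means under 0, LYZ being the other. Their summed FPKM was 4.83 to 5.86 in CP and 4.01 to 6.33 in GZ.

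All 9 tested endothelial and pericyte genes were higher in CP by limma, beside 20.9% of all genes tested, with a median log2 difference of -1.63. FLT1, KDR, RGS5 and CDH5 had log2 differences of -2.09, -2.02, -1.85 and -1.68. None of the 9 had the arrangement of CP replicate 1 high and GZ replicate 1 low. Their summed FPKM was 131 to 190 in CP and 32.8 to 69.0 in GZ, with no overlap. In the fit without number 1, 8 of the 9 were higher in CP, beside 1721 of 13477 genes tested.

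**Figure D3:**
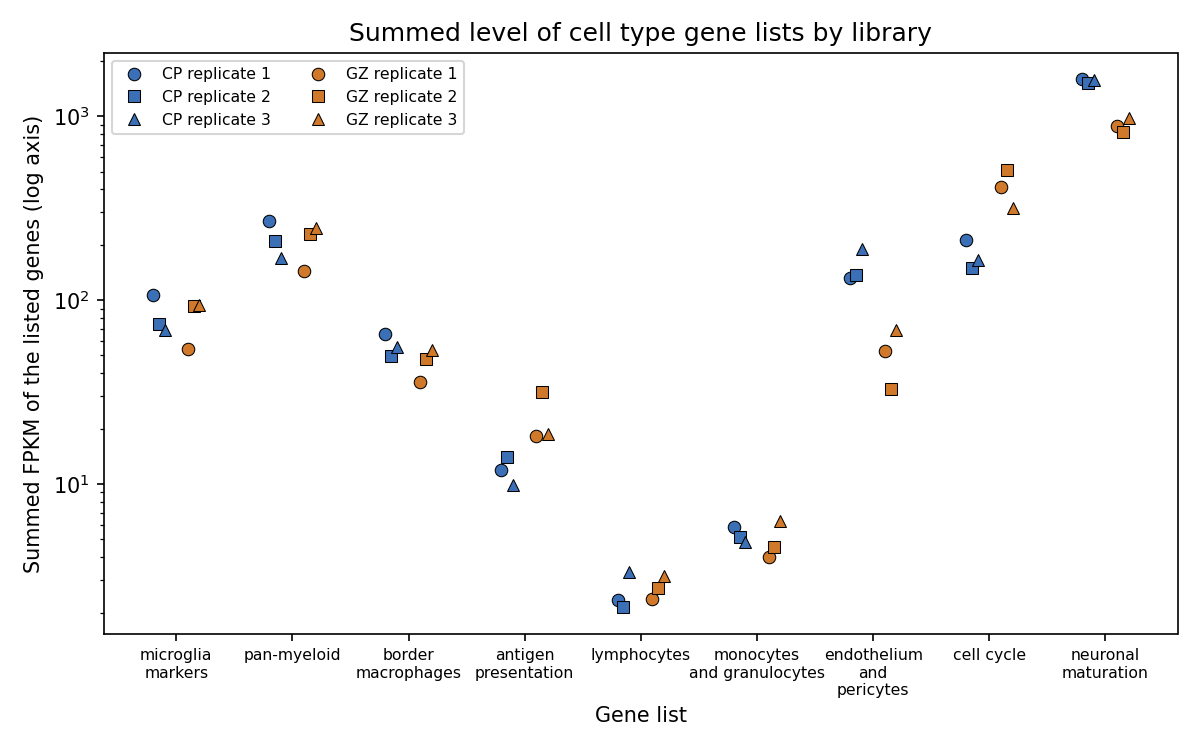
Summed FPKM of the measured genes of 9 lists (log axis) in each of the 3 CP (blue) and 3 GZ (orange) libraries. The microglia marker sums overlap between tissues, from 54.5 to 106, whereas the endothelium and pericyte sums do not.

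The genes most like the 5 marker genes were found by Pearson's r over the 6 libraries with the mean centred profile of the markers. Of 4741 named genes that varied enough (SD of at least 0.3), 27 had an r above 0.95, and 9 of the 10 highest are given here as a description, since they were chosen by that value. They were FOLR2, a folate receptor gene that stands in the border macrophage list above (0.998), NPL, an enzyme of sialic acid breakdown (0.988), the scavenger receptor genes CD36 (0.987) and OLR1 (0.981), and the Fc receptor gene FCGR2A (0.983). CFB and CFD of the alternative complement pathway (both 0.982), the leukocyte tetraspanin gene CD53 (0.981) and the oxidase subunit gene NCF4 (0.979) completed the 9. FOLR2 was 3.17, 2.62 and 2.34 in CP replicates 1 to 3 and 2.16, 3.03 and 3.08 in GZ replicates 1 to 3 (log2 FPKM). None of the 9 was called between tissues by limma (adjusted p from 0.715 to 0.964). That outcome was largely set by their choice, since the marker genes they track were not called either, and it is no separate result. The median r with the marker profile was 0.92 over the 20 pan-myeloid genes, -0.17 over the 9 vessel genes, -0.07 over the 5 antigen presentation genes and 0.00 over all genes tested.

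**Figure D4:**
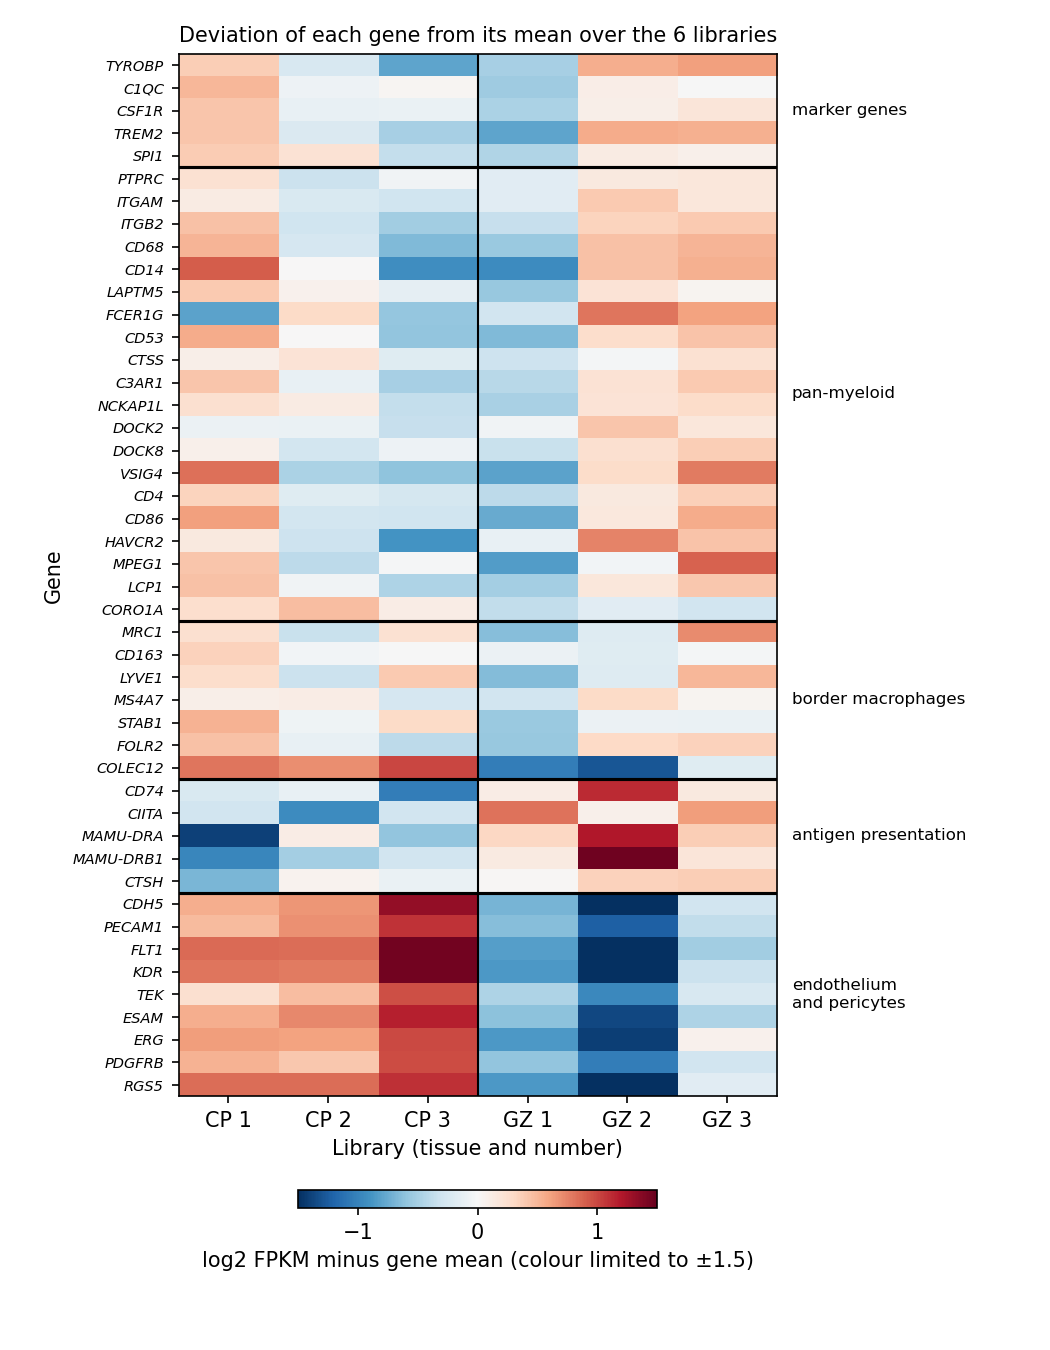
Deviation of each gene from its own mean over the 6 libraries, in log2 FPKM (colour), for the marker genes and 4 other lists (rows) in the CP and GZ libraries (columns). All 5 marker rows and 17 of the 20 pan-myeloid rows have CP replicate 1 as the highest CP library and GZ replicate 1 as the lowest GZ library, while the vessel rows are high in all CP libraries.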

How the data were processed

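RNA-seq values were deposited by the authors as 1 table of log2 FPKM normalized with cqn, per the labels, with 1 column per library. The submitters' processing notes name STAR and Mmul_8.0.1 without roles, and neither the read counter nor the annotation release was stated in the sources used here. Symbols came from a reference table keyed by gene identifier (14700 of 22345 matched). The 13460 genes whose mean over 6 libraries reached 0 were tested for GZ minus CP with limma 3.58.1 (R 4.3.3; lmFit, then eBayes with a variance trend), with Benjamini-Hochberg adjustment over all genes tested and no pseudocount. Sums and levels were computed in Python 3.11.15. The fit was tested on simulated data. The 10 marker genes and the other lists were chosen with earlier results of these data known. Named are all measured marker genes, up to 4 genes of each other list (called genes first, then by size) and the 10 genes most like the markers (1 of which is not reported here), plus the genes said to be named after their values were seen. Hi-C, DNase-seq and CTCF files hold positions without gene values and are not used here. No sequence of the marker genes is shown. Same-numbered libraries did not all deviate together from their tissue means (r = -0.38, 0.30 and 0.35 for numbers 1 to 3), so no pairing was assumed. The 16 alternatives were a replicate block, other filters, a pseudocount, other scalings and variance models, and libraries left out.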

Additional observations from a re-analysis of the deposited data

How the results depend on the processing

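The finding that none of the 5 marker genes was called held in 15 of 16 alternatives. Without both libraries numbered 1 the count was 2 higher in GZ, and over all genes 1644 calls favoured GZ and 1721 favoured CP, against 3297 and 2816. Leaving out a single library gave 0 marker genes called, 2237 to 3126 calls in favour of GZ, 2254 to 2864 in favour of CP, and a median difference of the markers from -0.24 to 0.06. Signs of uncalled differences changed in 8 cases. Without both libraries numbered 1, C1QC became 0.067, CSF1R 0.23 and SPI1 0.17. With 1 library left out, CSF1R ran from -0.269 to 0.063, changing sign without CP replicate 1 or GZ replicate 1. SPI1 ran from -0.379 to 0.024, changing sign without GZ replicate 1, and TREM2 from -0.027 to 0.647, changing sign without GZ replicate 2 or GZ replicate 3. Fitting the replicate number as a block left 0 of the 5 marker genes called, with 3300 calls in favour of GZ and 2817 in favour of CP; 4 of 6 libraries correlated best with their own number. Among the named genes of other lists, the block added calls of FCER1G (adjusted p = 0.029) and CD74 (0.0125) as higher in GZ and lost that of FGR (0.055), so that 1 pan-myeloid gene was higher in GZ and 1 signalling gene, LYN, in CP. Scaling, pseudocount, filter and variance model changed no call or sign of a marker gene. Of 512 counts over the other lists, 54 moved by more than 1.5 times or to or from 0, 14 of them without both libraries numbered 1. The 512 include counts of the lymphocyte list, of which 0 genes were tested in the 6-library fit. The intervals given hold the differences that 3 libraries per tissue do not exclude, and read depth is unknown.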
